A study of Arabidopsis thaliana with 2 samples.

Results

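The regions described here are bins on the chromosome arms of Arabidopsis thaliana in which Col-0 had an intermediate level of DNA methylation. They were selected on the measured counts of the 2 libraries. A member lies outside the pericentromeric regions of chromosomes 1 to 5, has at least 50 cytosine calls and at least 1 methylated call in each library, and has a Col-0 level of 10% to under 30%. The deposited table lists only bins with p of at most 0.01 by Fisher's exact test between the libraries, so every member had already passed that contrast. The rule found 6517 members among the 56731 listed bins. Of the 30174 listed arm bins, 20487 met the requirements on calls, and 11117 of these had a Col-0 level under 10% and 2853 a level of 30% or more. The listed arm bins are 3.43% of the 880461 arm bins of the reference. Because the Col-0 level and the difference itself chose the members, directions and differences below are descriptions and carry no test.

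Whole-genome bisulfite sequencing was performed on genomic DNA of whole 12-d-old seedlings, with 1 library of Col-0, the wild type, and 1 of miP1a-OX. The miP1a-OX plants are in the Col-0 background and overexpress FLAG-tagged miP1a, a microProtein with a B-Box domain that interacts with the flowering regulator CONSTANS (CO) and the co-repressor TOPLESS (TPL). A constitutive promoter drives the transgene, so its expression is not limited to the leaf cells in which CO acts, and a whole seedling mixes all of its tissues. No treatment was given to either genotype, and both grew under long days, on MS plates by the study's methods and on soil by the sample records. The comparison asks whether the DNA methylation of seedlings differed when the microProtein was overexpressed.

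In plants, cytosines are methylated in 3 sequence contexts, CG, CHG and CHH, where H is A, C or T. MET1 copies CG methylation after replication, CMT3 and CMT2 maintain CHG and CHH methylation with the histone mark H3K9me2, and RNA-directed DNA methylation (RdDM) through DRM2 acts in every context. Transposons and repeats carry methylation in all contexts, whereas the bodies of many long, constitutively expressed genes carry CG methylation alone, with little at their 5′ ends. Bisulfite converts unmethylated cytosines, which are then read as T, and the level of a bin is its methylated calls over all calls. Because the deposited counts pool all contexts on both strands, a bin at an intermediate level can hold fully methylated CG sites among unmethylated cytosines, or partial methylation of every cytosine.

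A member held between 53 and 18265 calls from Col-0 (median 377) and between 50 and 15888 from miP1a-OX (median 364). The median depth was 25.5-fold and 23.8-fold. Calls of the same read are not independent, so the 95% Clopper-Pearson intervals given below cover counting error only. There is no replicate check, and genotype, plant batch and library cannot be told apart. When calls were divided so that a read counted about once, 18 members kept a p of at most 0.01 by Fisher's exact test. Of these, 44.4% (21.5% to 69.2%) were higher in miP1a-OX, and their median difference was -8.34 points (-25.8 to 37.0 points, from ranks). The first interval includes an even split and the second spans both signs, so these few bins give no clear direction. A bin can reach the threshold by a large difference or by many reads, and which of these applied was not tested. With Benjamini-Hochberg adjustment of Fisher's exact test over all 1191466 nuclear bins, 2325 members kept an adjusted p of at most 0.01, of which 75.2% were higher.

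The sequences of the bins with the largest differences show how unlike the members were in base composition. Among the 5 members with the largest increase in miP1a-OX and at least 200 calls, 2 have no CG site at all, and all of their cytosines are in CHH context. These 2 and the bin upstream of KOR2 are printed 5′ to 3′ on the forward strand (RefSeq, TAIR10.1, which holds the same bins as the TAIR9 coordinates of the files), with CG dinucleotides in capitals.
intergenic, upstream side of PUB25, chr3:6717501-6717599: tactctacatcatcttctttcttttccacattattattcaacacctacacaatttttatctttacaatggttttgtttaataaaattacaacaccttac
intergenic, beyond the 3′ end of AT2G34230, chr2:14457401-14457499: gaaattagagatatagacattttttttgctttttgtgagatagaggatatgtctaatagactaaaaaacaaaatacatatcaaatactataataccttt
upstream of KOR2, chr1:24395801-24395899: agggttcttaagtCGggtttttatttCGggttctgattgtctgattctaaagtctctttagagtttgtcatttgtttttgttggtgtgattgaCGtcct
The largest decreases lay mostly in CG-rich sequence. The bins in the pseudogene AT1G20390, in XLG3 and upstream of UCNL are printed in the same way. The bin in AT1G75945 is shown because it lost methylation without holding a CG site.
pseudogene AT1G20390, chr1:7067001-7067099: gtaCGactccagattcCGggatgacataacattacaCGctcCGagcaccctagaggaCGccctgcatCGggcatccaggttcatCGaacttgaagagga
coding sequence of XLG3, chr1:11466301-11466399: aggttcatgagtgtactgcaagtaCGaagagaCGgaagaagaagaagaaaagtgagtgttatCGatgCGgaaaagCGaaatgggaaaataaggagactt
upstream of UCNL, chr3:7286701-7286799: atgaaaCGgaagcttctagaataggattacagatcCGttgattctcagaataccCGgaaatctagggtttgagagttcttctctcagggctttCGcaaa
coding sequence of AT1G75945, chr1:28515701-28515799: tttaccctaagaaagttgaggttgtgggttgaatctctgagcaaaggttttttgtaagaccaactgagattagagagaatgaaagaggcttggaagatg
The first 3 of these hold 7, 5 and 4 CG dinucleotides, and the bin upstream of KOR2 holds 3.

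Methylation of most members was higher in miP1a-OX. Of the 6517 members, 4691 (72%) were higher and 1826 lower, beside 67.7% higher among all 20487 listed arm bins that met the requirements on calls. The median level was 17.7% for Col-0 and 26.3% in miP1a-OX. The median difference was 9.54 points, with quartiles at -6.08 and 13.1 points. Pooled over all calls, the level was 18.7% for Col-0 and 24% for miP1a-OX, a difference of 5.27 points. Most differences were modest: members that were higher gained a median of 11.3 points, and those that were lower had a median difference of -8.48 points. A difference of at least 40 points was reached by 13 members (0.199%), beside 0.107% of the listed arm bins. All 13 were higher in miP1a-OX, which the choice of members fixed, since a Col-0 level under 30% cannot fall by 40 points. These 13 were shallow, with 63 to 174 calls in the library with fewer calls. In miP1a-OX, 2560 members (39.3%) reached 30% or more, whereas 110 fell under 1%.

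Direction differed with annotation. Members in coding sequence were mostly lower in miP1a-OX, and members between genes were mostly higher. Of 1345 coding members, 29.3% were higher, with a median level of 14.7% for Col-0 and 8.9% for miP1a-OX and a median difference of -7.13 points. Of 2501 intergenic members, 88.2% were higher, with median levels of 18.9% and 29.8% and a median difference of 11 points. Of 1438 members within the 1000 bases upstream of a gene, 88.8% were higher, with median levels of 18.6% and 30.3%. Introns lay between these classes, with 52.4% of 490 members higher, and untranslated regions too, with 62.4% of 189. Among 446 members in pseudogenes, which in this annotation include many transposable element genes, 82.1% were higher, and among 108 in RNA genes 68.5% were.

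**Figure D1:**
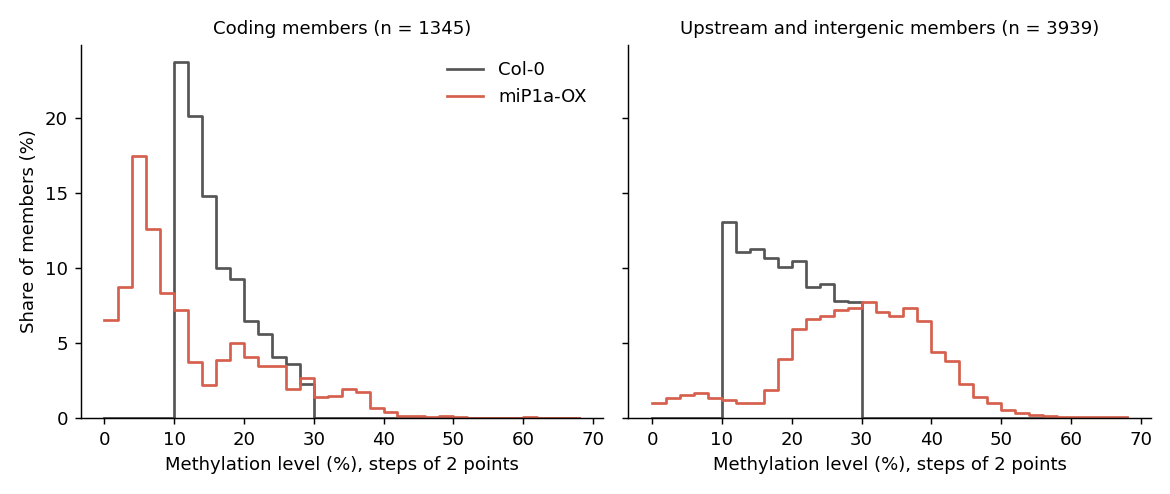
Share of members (vertical axis, %) at each methylation level (horizontal axis, %, in steps of 2 points) in Col-0 (grey) and miP1a-OX (red), for coding members (left) and for upstream and intergenic members (right). The Col-0 levels are confined to 10% to under 30% by the choice of members. In miP1a-OX most coding members lie under 10%, most members outside genes lie above 20%, and the dip between reflects that bins with similar levels are not listed.

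Many coding members were close to 0 in miP1a-OX. Of them, 327 (24.3%) were under 5% and 66 (4.91%) under 1%, beside 79 (3.16%) and 10 (0.4%) of the intergenic members. Only members that were lower could end there, which were 951 of the coding and 296 of the intergenic members. These shares therefore largely restate the direction. Coding members also often began low in Col-0, with 703 of 1345 between 10% and 15%. In untranslated regions 20 members (10.6%) were under 5% and 11 (5.82%) under 1%. At the other end, 49.4% of the intergenic members and 51.3% of the upstream members reached 30% or more in miP1a-OX, beside 8.48% of the coding members. Of the 80 members at 50% or more in miP1a-OX, 69 were outside genes and 3 were coding. The split did not depend on where in the window a bin lay. Between 10% and 15% in Col-0, 28.9% of 703 coding members and 87.7% of 1170 members outside genes were higher, and between 25% and 30% the shares were 28.7% of 108 and 87.9% of 796. The median differences outside genes were 9.8 and 11.7 points in these ranges, and in coding sequence -6.52 and -9.43 points.

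The direction of the coding members depended on which library chose the bins, and that of the members outside genes did not. When the same window was laid on the miP1a-OX level instead, 6294 bins were found, of which 82.4% were higher. Of the coding bins so chosen, 77.8% of 1394 were higher, the opposite of the 29.3% above. The share of intergenic bins was 87.4% and that of upstream bins 89.2%. With the level over both libraries as the criterion, 55.7% of 1237 coding bins were higher, beside 88.4% of the intergenic and 89.4% of the upstream bins. In the 2667 bins that lay in the window in both libraries, 55.2% of 507 coding bins were higher, with pooled levels of 18.5% in Col-0 and 18.8% in miP1a-OX. Pseudogene bins also turned, from 82.1% higher to 46.5% when miP1a-OX chose them. Coding bins chosen at an intermediate level in either library tended to be lower in the other.

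**Figure D2:**
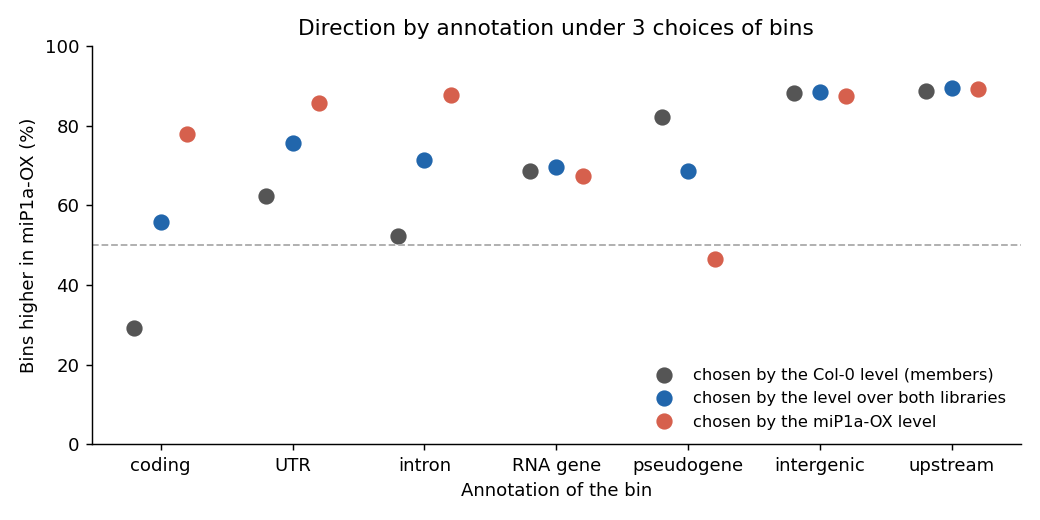
Share of bins higher in miP1a-OX (vertical axis, %) in each annotation class (horizontal axis), for bins chosen by the Col-0 level, which are the members (grey), by the level over both libraries (blue) and by the miP1a-OX level (red), with a dashed line at 50%. The 3 points of the intergenic and upstream classes nearly coincide, between 87.4% and 89.4%, whereas the coding points spread from 29.3% to 77.8%.

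Members were found more often outside genes than arm bins in general. Intergenic sequence held 38.4% of the members and 15.9% of all arm bins of the reference, the 1000 bases upstream of genes held 22.1% and 15.1%, and pseudogenes 6.84% and 2.06%. Coding sequence held 20.6% of the members and 34.2% of the reference bins, and introns 7.52% and 18.2%. The listed bins with a Col-0 level under 10% were closer to the reference, with 40.7% coding and 20.1% intergenic. Those at 30% or more were further from it, with 7.01% coding and 16.3% in pseudogenes. At those high levels the direction in pseudogenes was the reverse of that among the members, with 33.1% of 465 bins higher in miP1a-OX.

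The sequence context of the members differed with their annotation too. Coding members had a median of 43 cytosines, 8 of them in CG context on both strands, whereas intergenic members had 27 cytosines and 3 in CG context. Pooled over the bins, CG sites made up 19.0% of the cytosines of coding members and 15.1% of those of all coding arm bins. In intergenic members the share was 12.6%, beside 12.3% in all intergenic arm bins. A level above the CG share of a bin cannot come from CG sites alone if every cytosine is covered alike. This was the case in Col-0 for 33.8% of the coding members, 67.1% of the upstream members, 73.3% of the intergenic members and 90.1% of the pseudogene members. In miP1a-OX the share was 22.7% in coding members, 87.8% in upstream members and 90.5% in intergenic members. Outside genes, members above and below this line both were mostly higher in miP1a-OX, with 86.6% of 2799 and 92.8% of 1140.

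No CG site was present in 1079 members (16.6%), of which 563 were intergenic, 289 upstream and 18 coding. By the reference sequence, all methylation of these bins was in CHG or CHH context. Of the 852 members without a CG site outside genes, 79.0% were higher in miP1a-OX, with a median level of 17.9% in Col-0 and 29.3% in miP1a-OX. The share rose to 94.5% of 289 members with 7 or 8 CG cytosines. Among the 21 members outside genes with 15 or more CG cytosines it was 47.6%. In coding sequence the lowest share was found at 5 or 6 CG cytosines, where 18.7% of 278 members were higher and the median level was 13.4% for Col-0 and 5.83% for miP1a-OX. The few coding members with 2 CG cytosines or fewer were split nearly evenly, with 55.6% of 18 and 54.9% of 51 higher.

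**Figure D3:**
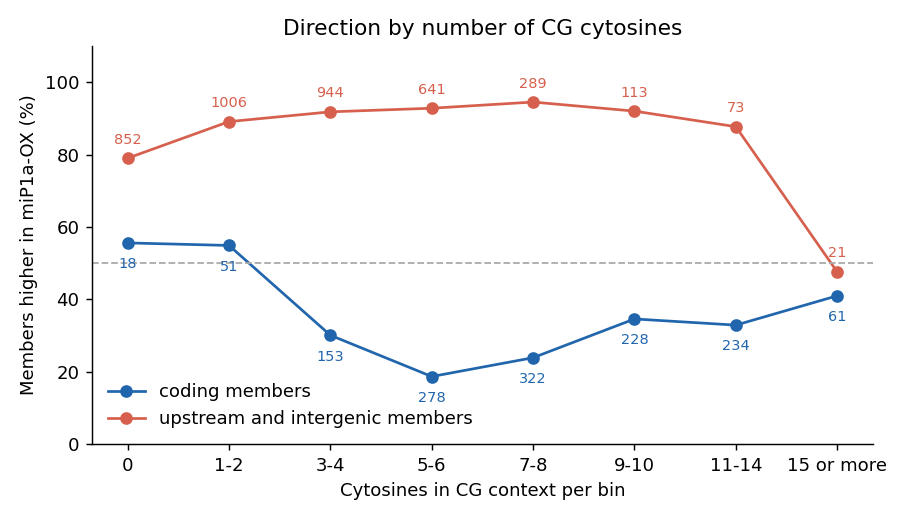
Share of members higher in miP1a-OX (vertical axis, %) by the number of cytosines in CG context in the bin (horizontal axis), for coding members (blue) and for upstream and intergenic members (red), with the number of members beside each point and a dashed line at 50%. The red points stay at 79.0% or above up to 14 CG cytosines, and the blue points are lowest, at 18.7%, with 5 or 6.

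Along genes, higher and lower members were placed differently. Higher members numbered 18.5 per 1000 reference bins at 1000 to 1500 bases upstream of the start, 7.22 in the last 500 bases before it and 0.898 in the first 20% of the gene body. Beyond the 3′ end they returned to 7.71 within 500 bases and to 17.8 at 1000 to 1500 bases. Lower members numbered 0.63 per 1000 in the first 20% of the gene body and 3.33 at 60% to 80% of its length, and from 0.96 to 3.43 per 1000 in the windows outside genes. They outnumbered the higher members between 20% and 100% of the body. The share higher in miP1a-OX was lowest at 60% to 80% of the body, with 31.2% of 560 members.

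**Figure D4:**
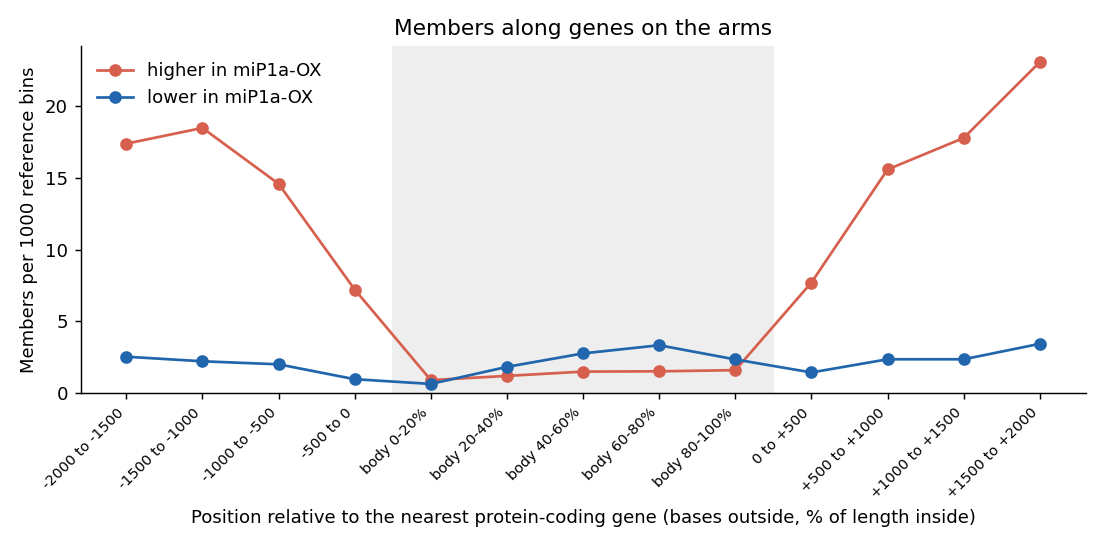
Members per 1000 reference bins (vertical axis) by position relative to the nearest protein-coding gene on the arms (horizontal axis, bases outside the gene and percent of its length inside, shaded), for members higher (red) and lower (blue) in miP1a-OX. The red line drops to 0.898 at the start of the gene body, and the blue line lies above the red line from 20% to 100% of the body, with 3.33 at 60% to 80%.

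Of the 24061 protein-coding genes on the arms, 1662 (6.91%) had a member in their body, and 1414 of these had exactly 1. Coding members were spread over 1206 genes, with a median length of 3063 bases beside 2120 bases for all arm genes. Longer genes also hold more bins, and the lengths were not compared at equal numbers of bins. In 852 of the 1206 genes all coding members were lower in miP1a-OX and in 327 all were higher. Of 62 genes with 3 or more members in the body, 26 had all of them higher, 11 all lower and 25 both. Beside 70.7% of all coding members, 62 of 84 in kinase genes, 16 of 22 in transporter genes, 20 of 30 in pentatricopeptide genes and 15 of 19 in disease resistance genes were lower. Smaller classes ranged from 8 of 12 in cytochrome P450 genes to all 9 in genes for photosystem or chlorophyll proteins. No class was tested against the other coding members. In F-box genes, which encode subunits that select targets for ubiquitination, 18 of 39 coding members were higher.

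Of the 5 genes with the most members, 4 carried them mainly in introns. AT1G58602, which encodes a disease resistance protein with LRR and NB-ARC domains, held 10 members, all intronic, between positions 21746901 and 21756599 of chromosome 1. Their pooled level was 19.0% (706 of 3710 calls) in Col-0 and 31.3% (1175 of 3758 calls) in miP1a-OX. Of these members, 9 were higher, by 9.35 to 15.9 points. The exception, at 21755101, went from 19.9% (36 of 181 calls) to 3.48% (4 of 115 calls) and has no CG site. AT5G53110, which encodes a RING/U-box protein, held 7 intronic members, all higher. They ranged from 13.1% to 28.3% in Col-0 and from 26.0% to 51.9% in miP1a-OX, and at least 93.4% of the words of 24 bases in each of them also occur elsewhere in the genome. AT5G62110, a homeodomain-like gene, held 7 members, 5 intronic and 2 coding, all higher, with pooled levels of 17.1% and 26.2%. AT2G34100, annotated as a nonsense-mediated mRNA decay-like protein, held 9 members, 8 intronic and 1 coding, of which 8 were higher, with pooled levels of 19.3% and 26.4%. The fifth of these genes, AT2G01008, lies at the end of chromosome 2. Of its 9 members, 8 were in untranslated regions and 1 was coding, and all were lower.

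The largest increases among the 5657 members with at least 200 calls in each library all lay outside genes. The largest was intergenic, at chr3:6717501-6717599, 1323 bases upstream of PUB25, which encodes a U-box ubiquitin ligase. There Col-0 had 29 of 273 calls methylated (10.6%, interval 7.23% to 14.9%) and miP1a-OX 104 of 211 (49.3%, 42.4% to 56.2%). Its neighbours on both sides were members and higher too, so that over the 3 bins the level was 10.3% for Col-0 and 31.8% for miP1a-OX. At chr1:24395801-24395899, 298 bases upstream of KOR2, an endoglucanase gene of the KORRIGAN family, Col-0 had 97 of 485 calls methylated (20%) and miP1a-OX 116 of 203 (57.1%). At chr2:14457401-14457499, 188 bases beyond the 3′ end of AT2G34230, the counts were 98 of 455 (21.5%) and 216 of 369 (58.5%). This bin holds 23 cytosines, all in CHH context, and neither neighbour was listed with the same direction. At chr1:29250101-29250199, 493 bases beyond the 3′ end of the glycosyl hydrolase gene AT1G77790, the level went from 27.8% (170 of 612 calls) to 63.6% (293 of 461 calls), with 28 of 36 cytosines in CHH context. The fifth, at chr2:15110201-15110299, lay 193 bases upstream of YLS9, with 16.5% in Col-0 and 50.9% in miP1a-OX.

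The largest decreases ended close to 0 in miP1a-OX. At chr1:7067001-7067099, in the pseudogene AT1G20390, Col-0 had 75 of 263 calls methylated (28.5%, interval 23.1% to 34.4%) and miP1a-OX 1 of 239 (0.418%, 0.0106% to 2.31%). It belongs to 11 listed bins in a row that were all lower, of which 3 are members, with pooled levels of 33.9% and 6.23%. In XLG3, which encodes an extra-large GTP-binding protein, the coding bin chr1:11466301-11466399 went from 28.6% (59 of 206 calls) to 1.37% (3 of 219 calls). No neighbouring bin was listed as lower beside it. At chr3:7286701-7286799, 259 bases upstream of UCNL, an AGC kinase gene, Col-0 had 200 of 723 calls methylated (27.7%) and miP1a-OX 3 of 687 (0.437%). A further coding decrease, in AT1G61690, a phosphoinositide binding protein gene, at chr1:22782901-22782999, went from 21.9% (57 of 260 calls) to 0.467% (1 of 214 calls).

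The other 2 of the 5 largest decreases lay at AT1G75945, an uncharacterized gene, in the 3′ untranslated region (28.9% to 0.282%, 270 and 354 calls) and 146 bases beyond it (29.6% to 0.632%, 609 and 475 calls). The coding bin chr1:28515701-28515799 of this gene, whose 39 cytosines include 4 in CHG and 35 in CHH context, had 71 of 328 methylated calls in Col-0 (21.6%) against 1 of 226 (0.442%). These 3 members are part of 12 listed bins in a row, all lower. The other 9 bins were left out by the rule, either because miP1a-OX had no methylated call or because Col-0 was above the window, with up to 57.7% in Col-0. In miP1a-OX none of the 12 bins exceeded 0.632%, with at least 199 calls in each. Of the 12 bins, 3 have no CG site, so these held methylation outside CG context in Col-0 and almost none in miP1a-OX.

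**Figure D5:**
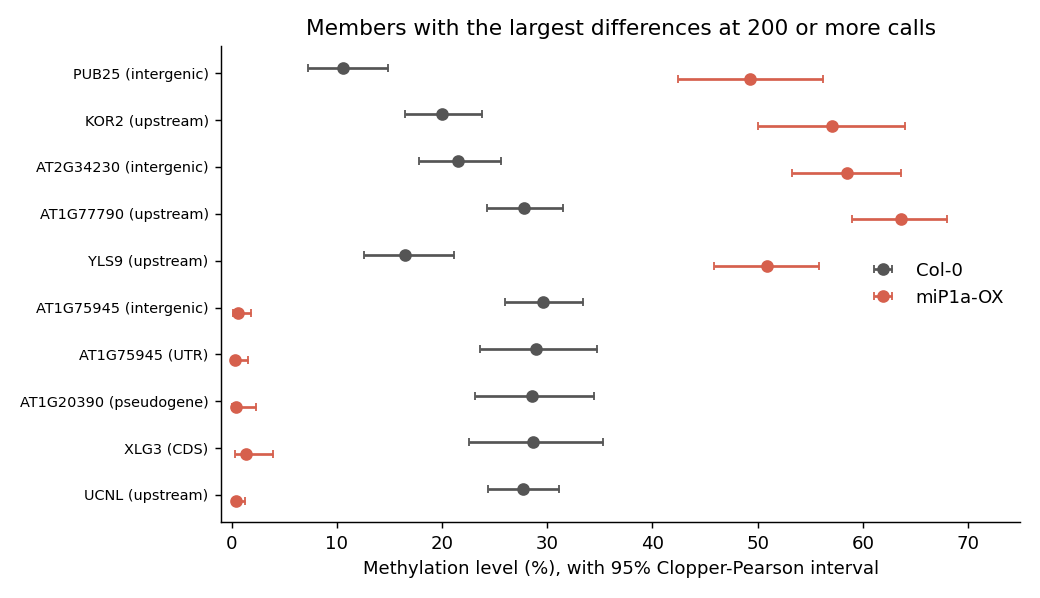
Methylation level (horizontal axis, %) of the 5 members with the largest increase (top) and the 5 with the largest decrease (bottom) among members with at least 200 calls in each library, in Col-0 (grey) and miP1a-OX (red), with 95% Clopper-Pearson intervals and labelled by the nearest gene and the annotation of the bin. The annotation can refer to another gene: the bin labelled AT1G77790 lies beyond the 3′ end of that gene and is upstream of a different one. All 5 increases end above 49% and all 5 decreases end under 2%. The intervals of the 2 libraries overlap in none of them, which follows from choosing the largest differences.

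Most members had no neighbouring member. Only members were counted, so a bin without a neighbouring member can still lie in a longer run of listed bins. The bin upstream of KOR2, for example, was the only member among 3 listed bins in a row that were all higher. Of the 6517, 5155 (79.1%) had no neighbouring member with the same direction, and 633 runs of 2 or more were formed, of which 79 had 3 or more. Where 2 members were neighbours, they had the same direction in 729 of 757 pairs (96.3%), and neighbouring bins share reads. Of the 79 runs of 3 or more, 70 were higher and 9 lower. A run of 5 members lay at chr3:985801-986299, 2033 bases beyond SAUR26, an auxin-responsive SAUR gene. Its levels were 10.8%, 20.9%, 23.4%, 15.6% and 17.7% in Col-0 and 22.6%, 36.9%, 43.5%, 27.1% and 68.1% in miP1a-OX. All 5 bins were higher, and the last of them, with 38 of 215 and 77 of 113 calls methylated, has no CG site. Another run of 5, at chr1:8538801-8539299, 1021 bases upstream of the Matrixin gene AT1G24140, had 18.8% and 36.9% over all its calls in Col-0 and miP1a-OX. There were 12 runs of 4 or more, and equal lengths were ranked by the larger pooled difference. The runs of 4 given here were thus chosen for their difference. A run of 4 at the 3′ end of AT5G01280, a gene for a GPI-anchored protein, had 20.9% and 45.2%, and 3 of its 4 bins have no CG site. A run of 4 that began 639 bases beyond the 3′ end of GH9B13, a glycosyl hydrolase gene, had 16.5% and 32.6%. Much of the sequence at AT1G24140, AT5G01280 and GH9B13 also occurs elsewhere in the genome. Such words of 24 bases made up 0.0%, 61.8%, 100%, 100% and 100% of the bins at AT1G24140. The shares were 76.3%, 57.9%, 71.1% and 21.1% at AT5G01280, and 100%, 100%, 68.4% and 85.5% at GH9B13. In the run at SAUR26 no bin exceeded 28.9%.

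The longest run of members was at the end of chromosome 2, next to the annotated ribosomal RNA genes, and went the other way. All 7 bins of chr2:2201-2899 in AT2G01008 were lower, with pooled levels of 20.4% (6532 of 31953 calls) in Col-0 and 13.7% (3801 of 27682 calls) in miP1a-OX. In the first 10 kb of this chromosome, 17 of 19 members were lower, with a pooled level of 23.2% in Col-0 and 17.5% in miP1a-OX. These 19 bins held 4.2% of all calls of the members in Col-0, with up to 18265 calls in a bin. In 18 of them most of the sequence also occurs elsewhere in the genome, and whether reads of other copies were placed there was not tested. Without the members above 10 times the median depth, the pooled difference over all members was 5.71 points.

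Genes of DNA methylation and of flowering were looked up in 7 lists with 73 genes, of which 68 lie on the arms and could hold a member. Members in the gene body or the 1000 bases upstream were found at 9 of them, 1 at each, with 3 higher and 6 lower in miP1a-OX. These are 13.2% of the 68, close to the 13% of all arm genes with a member in the same window. No member was found at the genes listed for RdDM, for CHG and CHH maintenance, or for the miP1a complex. The last list holds miP1a, miP1b, CO, TPL, the histone demethylase JMJ14 and the flowering gene FT. Changes further upstream or in bins that the rule left out are not counted here. By its own criteria the study reported increased methylation in the FT promoter of miP1a-OX. Among the flowering genes, 6 of 25 had a member. FWA, a homeodomain gene that is silenced by methylation at its 5′ end in Arabidopsis, was higher in an intronic bin close to its start, with 108 of 402 methylated calls for Col-0 (26.9%, interval 22.6% to 31.5%) and 113 of 287 for miP1a-OX (39.4%, 33.7% to 45.3%). Upstream of FVE, which represses the floral repressor FLC, the level was 27.9% in Col-0 and 37.6% in miP1a-OX. The photoreceptor genes CRY2 and PHYB were lower, with 28.1% and 20.3% in a coding bin of CRY2 and 10.4% and 4.33% in an intron of PHYB. LD and FLK, which also act against FLC, went from 10.2% to 4.92% and from 11.4% to 5.29%. At FVE, CRY2, LD and FLK the intervals of the 2 libraries overlap, and at FWA and PHYB they do not.

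The largest difference at a listed gene was at PRR7, a pseudo-response regulator of the circadian clock. In its coding bin chr5:641301-641399, Col-0 had 48 of 183 calls methylated (26.2%, interval 20% to 33.2%) and miP1a-OX 11 of 267 (4.12%, 2.07% to 7.25%), a difference of -22.1 points. Of the genes that act on methylation itself, DML1, the DNA glycosylase also known as ROS1, was lower in a coding bin, with 22% in Col-0 and 14% in miP1a-OX. VIM1, which recruits MET1 to CG sites after replication, was higher in an upstream bin, with 27.4% and 36.6%. The intervals of the 2 libraries overlap at VIM1 (23.1% to 32.0% and 31.6% to 41.8%) and do not at DML1. Of the 9 bins at listed genes, the 4 coding bins were lower and the 2 upstream bins higher. The intronic bins were split, with FWA higher and PHYB lower, and the bin of FLK, in an untranslated region, was lower.

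Members were denser near the pericentromeres. They numbered 135 per Mb within 1 Mb of these regions, 84.6 per Mb at 2 to 4 Mb and 41.4 per Mb beyond 8 Mb. Along the same course the share in coding sequence rose from 13.9% to 34.8%, and the share higher in miP1a-OX went from 76.9% to 61.0%. Among the 10 arms, the share higher ranged from 66.8% to 74.7%, that of coding members from 18.2% to 36.1% and that of intergenic members from 81.3% to 90.4%. On each of the 10 arms the intergenic share was above the coding share. The arms are not replicates, since they share the same 2 libraries and the same choice of bins by the Col-0 level.

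Many members are repeats. In 1662 of them (25.5%), at least 50% of the words of 24 bases occur elsewhere in the genome, with 5.5% of the coding members, 38.6% of the intergenic members and 37.9% of those in pseudogenes. Where reads of such copies cannot be placed uniquely, their levels may mix copies, and the part of this in the differences was not tested. Without these members, 66.6% of the remaining 4855 were higher, with 28.5% of the coding, 85.9% of the intergenic and 87.6% of the upstream members. The differences were smaller where depth was higher, since fewer calls need a larger difference to be listed. With 100 to 200 calls in the library with fewer calls, the median absolute difference was 13.6 points, and 24% of the coding members and 85.2% of those outside genes were higher. With 400 to 800 calls it was 9.0 points, and the shares were 41.6% and 89.8%.

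Just inside the lower limit, a coding bin of AT1G53200 had 34 of 340 calls methylated in Col-0 (10%) and a miP1a-OX level of 18%. Just outside it a coding bin of AT2G01370 had 63 of 631 (9.98%) and 17.7%. At the upper limit, a bin in DSEL had 149 of 497 calls methylated in Col-0, just under 30%, and 45.5% in miP1a-OX, and a bin upstream of FBR12 at exactly 30% (138 of 460 calls), which is not a member, had 46.1%. A member with 50 calls in miP1a-OX, upstream of AT1G19450, went from 22.0% to 54.0%, and a bin with 48 calls in Col-0, beyond AT5G40540, which is not a member, went from 12.5% to 38.9%. In the Col-0 window, 27 arm bins were left out for too few calls and 182 because miP1a-OX had no methylated call. Of those 182, 109 (59.9%) were coding, and with them 27.1% of 1454 coding bins were higher.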

How the data were processed

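Whole-genome bisulfite sequencing of 2 libraries, Col-0 and miP1a-OX, was used. The authors used BS-Seeker2 2.1.0 with Bowtie2 for mapping (TAIR9) and Methpipe for levels, and deposited counts of methylated and unmethylated cytosine calls, without normalization, in bins spaced 100 bases apart. The p-values that the authors deposited per bin, their merged list and another 9 numeric columns were not used. For every listed bin a two-sided Fisher's exact test was recomputed on the counts; its largest p was 0.01, and it was tested on simulated data.

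The members and gene lists were chosen with earlier results of these data known. Annotation and sequence were taken from RefSeq TAIR10.1, in which the number of C plus G in the first 99 bases equalled the deposited number of cytosines for 100% of the listed nuclear bins. A bin took the class of its centre base, in the order coding, untranslated region, intron, pseudogene, RNA gene, 1000 bases upstream of a protein-coding gene, intergenic. No transposon annotation was used here. Words of 24 bases were compared to find copies. Named bins are the 5 largest increases and 5 largest decreases among members with at least 200 calls in each library, the largest changes without a CG site or in coding sequence, the 5 longest runs, the 5 genes with the most members and members at listed genes. The other bins given singly were chosen after their values were seen. Intervals are 95% Clopper-Pearson intervals, except that of a median, which was taken from ranks. Python 3.11.15, numpy 2.4.6, pandas 2.3.3, scipy 1.17.1 and matplotlib 3.10.9 were used. The alternatives were other minimums of calls, adjustment, thinning, calls divided by read, other choices of the window and of the arms, and other annotation windows.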

Additional observations from a re-analysis of the deposited data

How the results depend on the processing

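No paired analysis was possible because a genotype is represented by a single library. The rule gave 6517 members, 72% higher, with a median difference of 9.54 and a pooled difference of 5.27 points. In the order share higher, median difference and pooled difference, adjustment over all nuclear bins gave 75.2%, 13.6 and 7.09 points in 2325 bins, thinning of the deeper library 73.4%, 10.4 and 6.36 points, the window on the miP1a-OX level 82.4% and 8.38 points, the window on both libraries 79.1%, 9.32 and 5.83 points. Arms cut back by 1 Mb gave 70.7% and a pooled 4.92 points, and at least 200 calls a median of 9.31 points. Dividing the calls by the cytosines a read covers left 18 bins, 44.4% of them higher (21.5% to 69.2%). Their median was -8.34 points (-25.8 to 37.0 points) and their pooled difference -6.73 points. Among 2 coding, 6 intergenic and 8 upstream bins 50% were higher.

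The share of coding members higher, 29.3%, became 77.8% and 55.7% when miP1a-OX or both libraries chose the bins, and 18.3% after adjustment. That of intergenic members became 89.6% after adjustment. Alternatives chosen after seeing the data were the bins with no methylated call kept (70%, 9.38 and 4.83 points), copies left out (66.6%, 8.67 and 4.47 points, and 85.9% of intergenic members) and bins over 10 times the median depth left out (pooled 5.71 points). Any overlap with a feature made 24.8% of the members coding and 36.5% intergenic, and 2000 bases upstream made 22.7% intergenic and 37.8% upstream. With a margin of 5 points on the CG share, 46.1% of the members lay above it, instead of 62.2%. With minimums of 50 and 100 calls, 3 and 4 of the 10 bins named for their differences were still named. The other 53 values moved by less than their counting interval or, for counts, by less than 1.5 times.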
